A study of Mus musculus with 7 samples.

Results

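The miRNAs of red blood cells described here are mmu-miR-144, mmu-miR-451, mmu-miR-486 and mmu-miR-3107, chosen by name among the miRNAs on 1-colour Agilent mouse miRNA arrays. Of these 4 names, 3 were found among the 696 mouse miRNAs named by the array features, and all 3 passed the detection filter that kept 236 miRNAs for testing. No feature in the files used here carried the name mmu-miR-486, so miR-486 was not analysed here. The other strands of the hairpins had 0 features. Total RNA came from kidneys of male C57BL/6 mice that were 9 to 12 weeks old when bought for surgery. The kidneys were collected at day 28 after ligation of the left ureter or a sham operation without ligation. Such ligation (unilateral ureteral obstruction, UUO) is a model of kidney fibrosis. Of 7 arrays, 3 carried the label treated and 4 the label non-treated. The labels do not say which of these operations each stands for. The treated arrays are numbered with an S and the non-treated arrays with a C. Directions below follow the labels as deposited: a positive difference is a higher value on the arrays labelled treated. Read in this way, the signs are opposite to those of the study's own comparison. It is not settled which label stands for the obstructed kidneys.

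miR-144 and miR-451 are made from a single transcript that the transcription factor GATA1 drives in erythroid cells, the precursors of red cells. They are known for their part in the maturation of red cells and in their protection from oxidant stress. The miR-451 hairpin is too short to be cut by Dicer and is instead cut by Ago2. miR-486 lies in an intron of Ank1, a gene for a protein of the red cell membrane skeleton that muscle also uses, and it is known in erythroid cells and in muscle. In total RNA of a whole kidney, fewer cells of a type and less RNA per cell cannot be told apart.

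Sequences of both members that the RefSeq table holds are shown with those of miR-101a-3p and miR-101b-3p, which are among the nearest to miR-144. They are shown because the reading of a short probe depends on how many near copies its target has. Capitals mark the seed, bases 2 to 8 from the 5′ end, and positions are those of build GRCm38.p6. The array name miR-144 is the older name of the 3′ strand, and miR-451 that of miR-451a.
mmu-miR-144-3p, chr11:78073047-78073066, plus strand: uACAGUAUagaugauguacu
mmu-miR-451a, chr11:78073186-78073207, plus strand: aAACCGUUaccauuacugaguu
mmu-miR-101a-3p, chr4:101346957-101346977, minus strand: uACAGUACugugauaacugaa
mmu-miR-101b-3p, chr19:29135338-29135356, plus strand: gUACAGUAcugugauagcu
None of the 1673 other mature sequences of the table shared its seed with miR-144-3p or with miR-451a. Both seeds lay 3 single-base edits apart. The known sequences nearest to miR-144-3p included miR-101b-3p and miR-7034-5p at 7 edits each and miR-101a-3p at 8 edits. miR-7034 was not on the arrays. On the arrays miR-101b was 4.82 ± 0.13 (log2 signal, SD, n = 4) on labelled non-treated and 4.67 ± 0.096 (n = 3) on labelled treated arrays, a difference of -0.15 (SE 0.10, limma adjusted p = 0.215). miR-101a was 7.80 ± 0.038 and 8.46 ± 0.017, a difference of 0.66 (SE 0.071, limma adjusted p = 4.83e-05). The sequence nearest to miR-451a, miR-295-3p at 8 edits, was on the arrays but not detected often enough to be tested.

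The hairpins of miR-144 and miR-451a lie on the plus strand of chromosome 11 and are shown with the mature strand in capitals, since the position of that strand differs between them.
Mir144 hairpin, chr11:78073005-78073070: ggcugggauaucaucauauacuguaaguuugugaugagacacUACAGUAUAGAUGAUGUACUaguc
Mir451a hairpin, chr11:78073170-78073241: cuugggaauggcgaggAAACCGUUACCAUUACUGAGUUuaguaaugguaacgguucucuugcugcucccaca
In the miR-144 hairpin of 66 bases the mature strand took bases 43 to 62, on the 3′ side. In the miR-451a hairpin of 72 bases it took bases 17 to 38 and ran into the loop. Both hairpins are 99 bases apart. A further hairpin, Mir451b, is the exact reverse complement of Mir451a on the minus strand. In the RefSeq gene table the gene of miR-3107 lies inside the interval of that of miR-486, which lies inside Ank1.

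The 3 measured red-cell miRNAs were higher on the arrays labelled treated. miR-144 was 6.11-fold higher, miR-451 3.14-fold and miR-3107 3.19-fold, after each array was scaled by its mean over the miRNAs that every array detected (log2). The differences passed the threshold of a limma adjusted p of 0.01 for all 3, against a background of 25.8% of tested miRNAs that were higher at that threshold (60.6% in either direction).

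miR-144 had log2 signals of 3.89, 4.01, 4.63 and 4.95 on non-treated replicates 1 to 4 and of 7.07, 6.86 and 7.01 on treated replicates 1, 3 and 4. All treated arrays lay above all non-treated arrays, and the non-treated arrays were spread much more widely. The means were 4.37 ± 0.51 (SD, n = 4) and 6.98 ± 0.11 (SD, n = 3), a difference of 2.61 (SE 0.25, 95% confidence interval 2.04 to 3.18, limma adjusted p = 2.71e-05). Ordered by size, this was rise number 4 among the 236 tested miRNAs.

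miR-451, the most abundant miRNA of mature red cells, had log2 signals of 10.42, 10.05, 10.52 and 11.17 on the non-treated and of 12.16, 12.14 and 12.28 on the treated arrays. The groups did not overlap, and non-treated replicate 4 lay nearest to the treated arrays. The means were 10.54 ± 0.46 and 12.19 ± 0.081, a difference of 1.65 (SE 0.23, 95% confidence interval 1.13 to 2.18, limma adjusted p = 0.000207).

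miR-3107, whose gene overlaps that of miR-486, had log2 signals of 4.49, 3.96, 4.62 and 4.93 on the non-treated and of 6.20, 5.94 and 6.38 on the treated arrays. Here too the groups did not overlap and non-treated replicate 4 was the highest of its label. The means were 4.50 ± 0.41 and 6.17 ± 0.23, a difference of 1.67 (SE 0.22, 95% confidence interval 1.17 to 2.18, limma adjusted p = 0.000149). Groups that do not overlap, with the treated arrays higher, were seen for 30.5% of the tested miRNAs. For each of the 3 members the exact permutation test over arrays gave p = 0.0571, the smallest that the 35 splits of 7 arrays allow, so this test could not reach the 0.05 level.

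**Figure D1:**
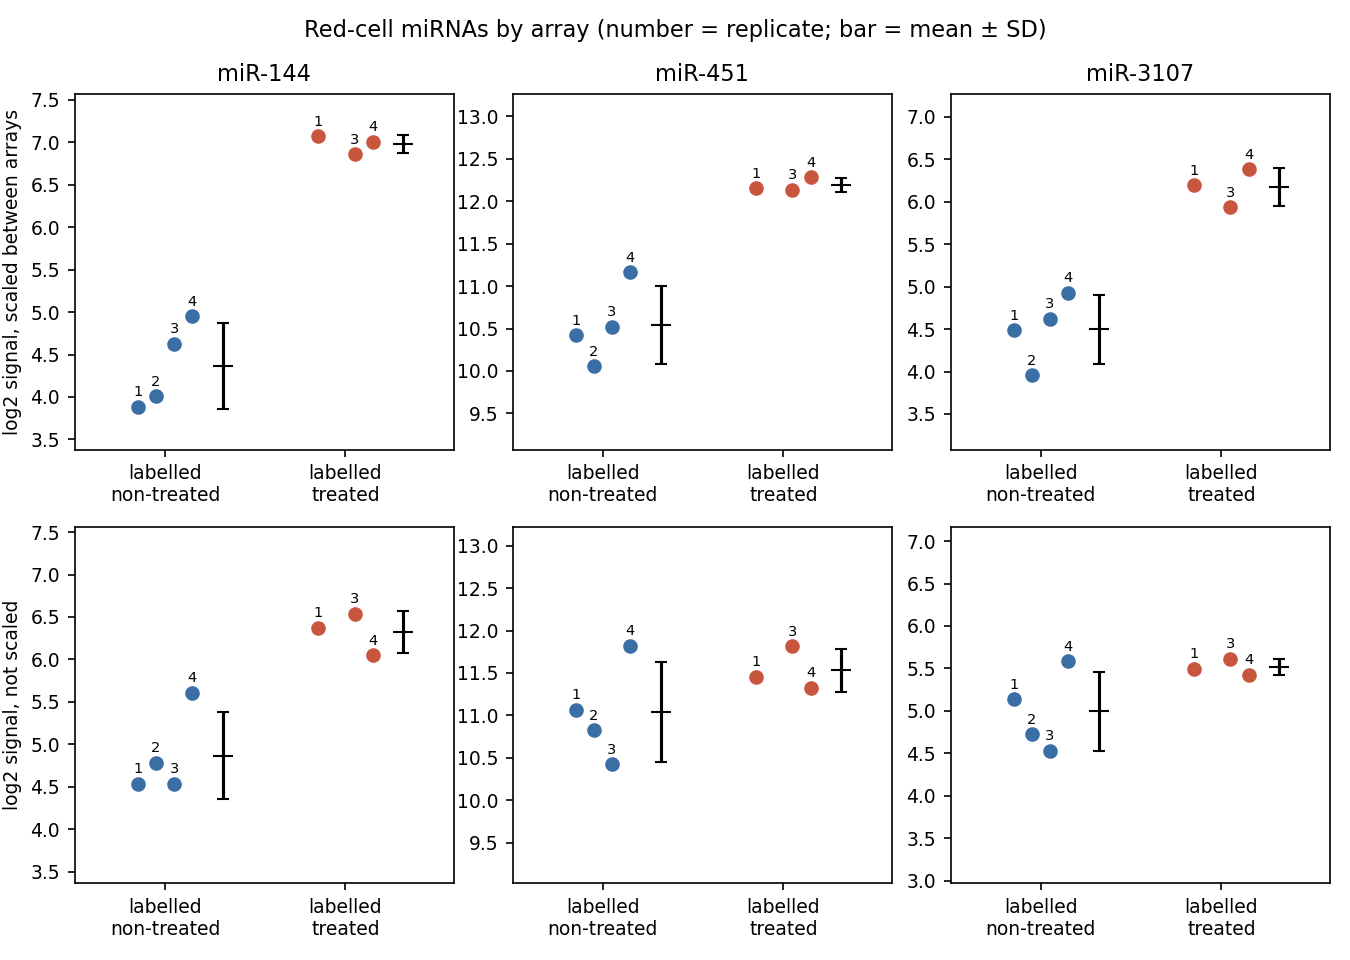
Log2 signal of miR-144, miR-451 and miR-3107 on each array, numbered by replicate, with scaling between arrays in the upper and without it in the lower panels; bars give the mean ± SD of 4 arrays labelled non-treated and 3 labelled treated. The labels separate in all upper panels, while non-treated replicate 4 reaches the treated arrays for miR-451 and miR-3107 in the lower panels.

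The scaling between arrays set how large these differences were. The arrays labelled treated were dimmer: the 186 miRNAs that every array detected had a mean log2 signal of 5.79 to 6.42 on them and of 6.65 to 7.52 on the non-treated arrays, and 193 to 214 miRNAs were detected against 232 to 282. The spike-in control spots lay between 10.22 and 10.80 on the treated and between 10.39 and 10.88 on the non-treated arrays. The part of total RNA amount or quality in this was not tested. Across the 236 tested miRNAs the median difference was -0.13 with the scaling, -1.22 without any scaling and -1.05 with scaling by the spike-in spots.

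Without scaling, miR-144 had signals of 23.2, 27.5, 23.2 and 48.8 (linear intensity) on the non-treated arrays and of 82.8, 93.0 and 66.2 on the treated arrays. All treated arrays stayed above all non-treated arrays, and the difference was 1.45 on the log2 scale (SE 0.33, limma adjusted p = 2.46e-05). Without scaling limma gave the same SE to all 3 members, because it pooled the variance fully over the tested miRNAs. That p therefore does not measure the spread of miR-144 itself, for which the exact permutation test gave p = 0.0571. Only 3.39% of the tested miRNAs were higher at the threshold without scaling. With spike-in scaling the difference was 1.66 (SE 0.24, limma adjusted p = 0.000114), and 7.63% of the tested miRNAs were higher.

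miR-451 had unscaled signals of 2149, 1815, 1374 and 3621 on the non-treated arrays and of 2806, 3597 and 2569 on the treated arrays. Non-treated replicate 4 lay above every treated array, while the other non-treated arrays lay below them. The difference of 0.50 (SE 0.33, 95% confidence interval -0.15 to 1.14) missed the threshold, with a limma adjusted p of 0.152. With spike-in scaling it was 0.70 (SE 0.23, limma adjusted p = 0.0180), which also missed it.

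miR-3107 had unscaled signals of 35.2, 26.5, 23.1 and 48.0 on the non-treated arrays and of 45.1, 48.9 and 43.0 on the treated arrays. Its groups overlapped through the same array, non-treated replicate 4. The difference was 0.52 (SE 0.33, 95% confidence interval -0.12 to 1.16, limma adjusted p = 0.135) without scaling, and 0.72 (SE 0.20, limma adjusted p = 0.00747) with spike-in scaling, where the groups did not overlap. The sign was positive for the 3 members in each of the 25 alternative settings run.

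**Figure D2:**
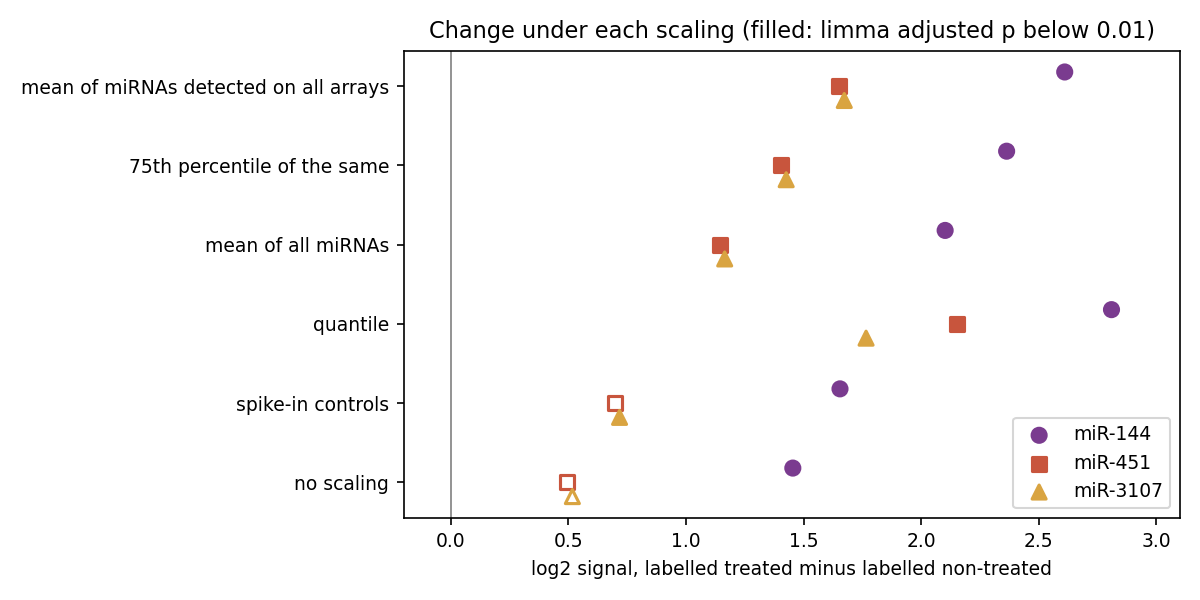
Log2 difference, treated minus non-treated label, for miR-144 (circles), miR-451 (squares) and miR-3107 (triangles) under the 6 ways of scaling between arrays; filled symbols passed a limma adjusted p of 0.01. All values are above 0, and the smallest are those without scaling, 1.45, 0.50 and 0.52.

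Each of the 3 miRNAs was read by 2 probes of 10 spots each. All 140 spots of each miRNA over the 7 arrays were well above background, 0 were saturated, and 4, 6 and 7 outlier spots were left out for miR-144, miR-451 and miR-3107. For miR-144 the probes A_54_P2311 and A_54_P2312 gave differences of 2.59 (SE 0.29) and 2.63 (SE 0.29). For miR-451 the probes A_54_P1625 and A_54_P1626 gave 1.56 (SE 0.27) and 1.70 (SE 0.26). For miR-3107 the probes A_54_P1692 and A_54_P1693 gave 1.67 (SE 0.24) and 1.67 (SE 0.28). All 6 probes were higher on the treated arrays with no overlap of the labels and limma adjusted p between 0.000628 and 0.00396, against 20.1% of the 528 probes tested that were higher at the threshold. Each pair of probes reads the same RNA on the same array, and differed by less than the standard errors.

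**Figure D3:**
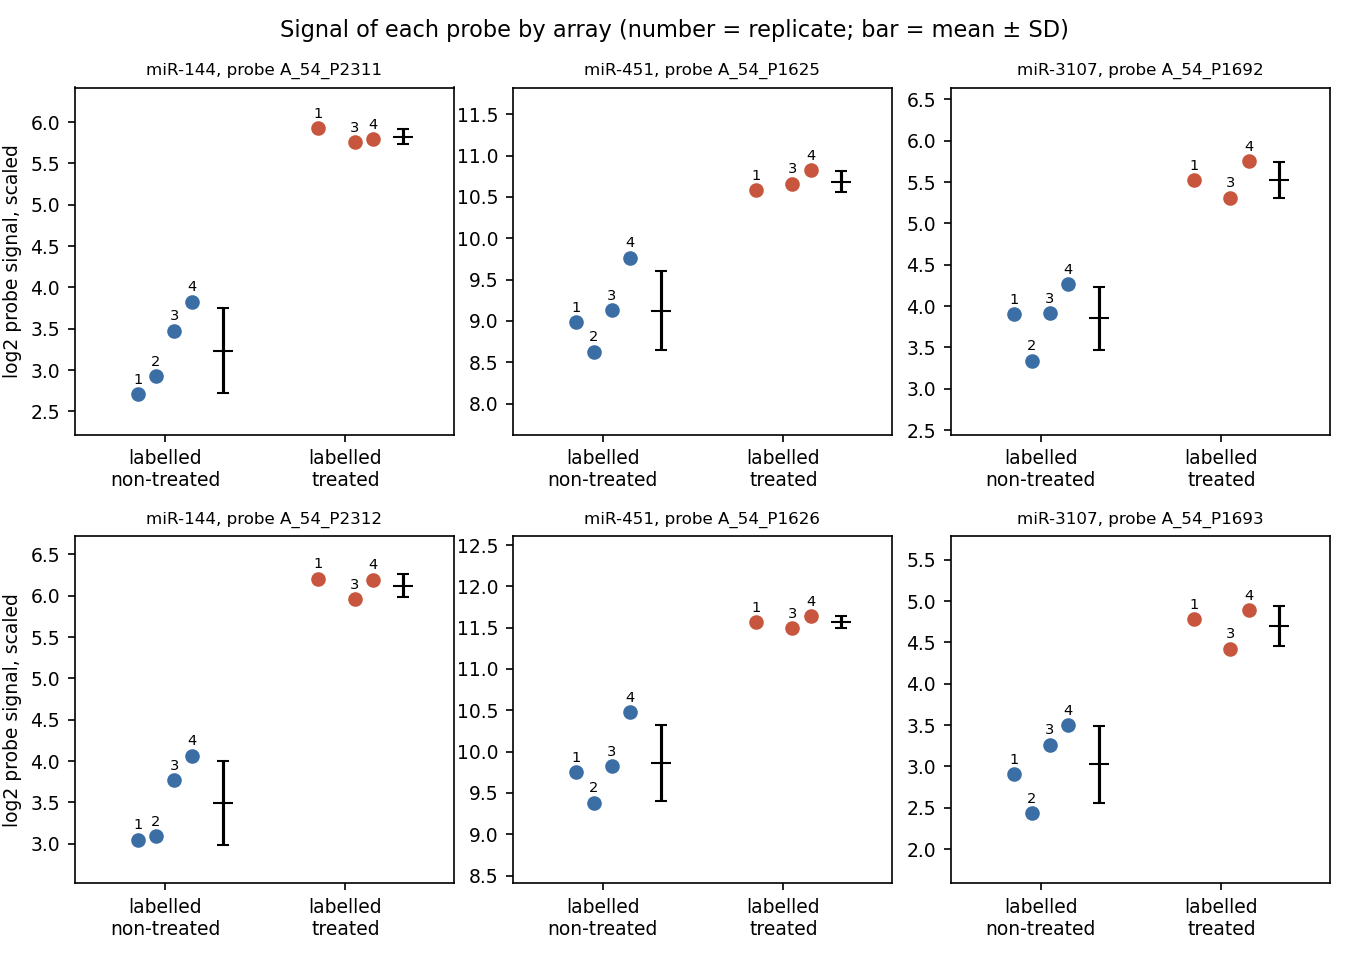
Log2 scaled signal of each of the 6 probes on every array, numbered by replicate, with the mean ± SD of 4 non-treated and 3 treated arrays; each column holds both probes of 1 miRNA. The 4 non-treated arrays take the same order in both probes of a miRNA, and the labels do not overlap for any probe.

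With the main scaling the difference between labels was larger for miR-144 than for miR-451 or miR-3107. The members were set against each other by the log2 ratio of a pair within each array, which a scaling by 1 factor per array leaves as it is but quantile normalization does not. Signals of different probes are not comparable as amounts, so only the change of a ratio between labels is read. The ratio of miR-144 to miR-451 was -6.53, -6.04, -5.89 and -6.21 on the non-treated and -5.08, -5.27 and -5.28 on the treated arrays. The labels did not overlap, and the ratio was higher on the treated arrays by 0.96 (SE 0.15, exact permutation p = 0.0571, 0.0857 adjusted over the 3 pairs compared).

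The ratio of miR-144 to miR-3107 was -0.60, 0.055, 0.0048 and 0.022 on the non-treated and 0.88, 0.93 and 0.62 on the treated arrays. It was higher on the treated arrays by 0.94 (SE 0.18, exact permutation p = 0.0571, adjusted 0.0857), and non-treated replicate 1 lay apart from the other non-treated arrays. With only 35 splits neither difference could pass the 0.05 level. Both ratios moved with the processing. With quantile normalization the difference was 0.66 for miR-144 over miR-451 and 1.04 for miR-144 over miR-3107. With normexp background correction (offset of 50) and no quantile step the differences were -0.036 and 0.31. With both steps they were -1.44 and 0.27, so that miR-451 then differed more between the labels than miR-144. The offset lay above the mean probe signals of miR-144 (10.3 to 49.8) and miR-3107 (8.99 to 31.8) and far below those of miR-451 (524 to 2303). An added constant narrows log2 differences of dim probes more than those of bright ones. Its part in the reversal was not tested.

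The ratio of miR-451 to miR-3107 was 5.93, 6.10, 5.89 and 6.24 on the non-treated and 5.96, 6.20 and 5.90 on the treated arrays. The labels overlapped throughout, and the whole range over the 7 arrays was 0.34. The difference between labels was -0.021 (SE 0.12, exact permutation p = 0.914, adjusted 0.914). It was 0.38 with quantile normalization, 0.35 with normexp alone and 1.71 with both. Whether the probes of miR-3107 also catch miR-486 could not be checked by signal, since miR-486 was not analysed here. Nor could it be checked by sequence, since the RefSeq table held no mature sequence of either. The values given for miR-3107 may therefore not be those of miR-3107 alone.

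**Figure D4:**
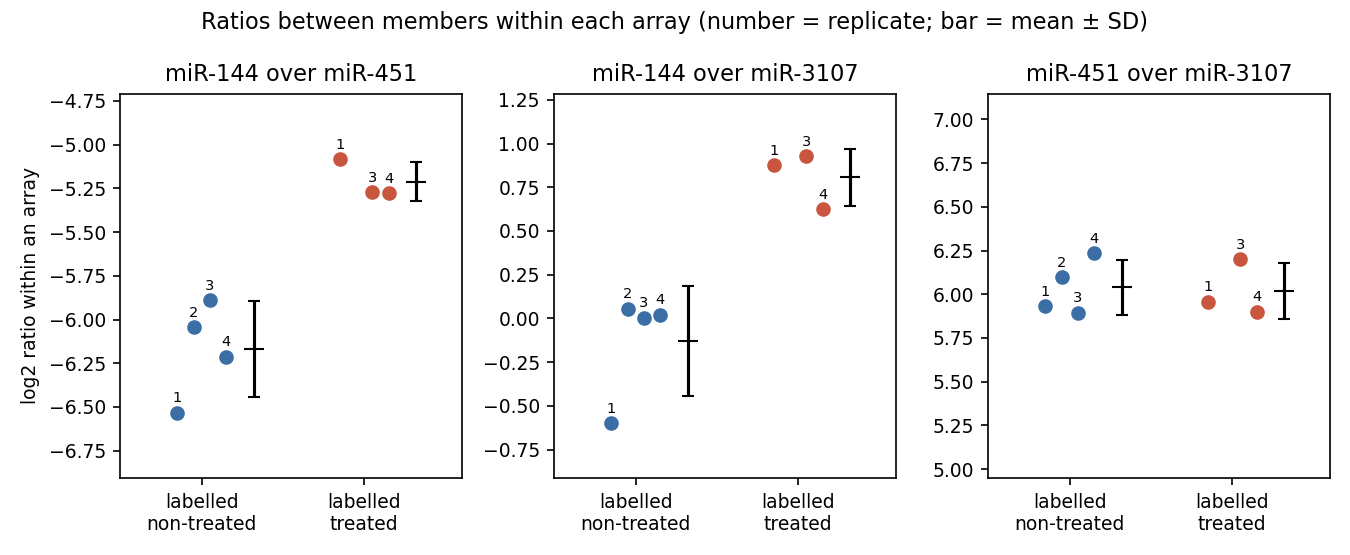
Log2 ratio of each pair of members within an array, numbered by replicate, with the mean ± SD of 4 non-treated and 3 treated arrays. Both ratios with miR-144 lie higher on all 3 treated arrays than on any non-treated array, while miR-451 over miR-3107 stays between 5.89 and 6.24 on all 7 arrays. The difference of the first turns to -1.44 with quantile normalization and normexp, whose offset of 50 lies above the mean probe signals of miR-144.

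The red-cell miRNAs also varied from one non-treated array to the next. Their SD over the 4 non-treated arrays took places 10 (miR-144), 16 (miR-451) and 21 (miR-3107) from the top of 236 tested miRNAs, whose median SD was 0.15. On the treated arrays the same places were 98, 140 and 41, with a median SD of 0.094. Non-treated replicate 4 was the highest of its label for all 3. The lowest was non-treated replicate 2 for miR-451 and miR-3107, and non-treated replicate 1 for miR-144. Leaving out non-treated replicate 4 gave differences of 2.80 for miR-144, 1.86 for miR-451 and 1.82 for miR-3107. All arrays were on 1 slide. In the slide row with 2 arrays of each label the differences were 2.14, 1.37 and 1.38, and in the row with 1 treated and 2 non-treated arrays 3.12, 1.92 and 1.98, in the same order of miRNAs.

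The miRNA whose pattern over the 7 arrays was most like that of miR-451 was miR-3107. Likeness was taken as the root mean square difference of log2 signals, each centred on its own mean, so that 0 would be the same pattern. miR-3107 differed from miR-451 by 0.13, miR-1198-5p by 0.26 and miR-378* by 0.29, where the median over all tested miRNAs was 0.94. Of these, miR-1198-5p was detected on 3 non-treated arrays and averaged 1.48 on that label, near the floor (log2 of 1.06). For miR-144, compared in the same way after the values were seen, the nearest were miR-874 at 0.31, miR-194 at 0.34 and miR-551b at 0.38, with a median of 1.40. However, miR-874 and miR-551b were detected on 0 non-treated arrays and averaged 1.13 and 1.06 there, near or at the floor (log2 of 1.06). Their pattern is thus little more than a step between the labels. With the label means taken out, so that only the spread within labels was left, the nearest to miR-144 was miR-451 at 0.19. It was closely followed by miR-3107 at 0.22 and miR-1198-5p at 0.23. miR-451 and miR-3107 stayed nearest to each other at 0.13, with miR-144 next to miR-451 at 0.19 and miR-21 next to miR-3107 at 0.20. These distances share their arrays and scaling and are a description without a test.

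The other miRNAs listed as abundant or induced in red cells differed in both directions. Of 16 named, 15 were on the arrays under the listed name and 14 were tested. Of those tested, 2 were higher, 5 were lower and 7 did not pass, where 25.8% of all tested miRNAs were higher and 34.7% lower. The median difference was -0.14, beside -0.13 over all tested miRNAs. The log2 of the summed signal of the list, to which its brightest miRNAs give most, lay between 12.29 and 12.41 on the non-treated arrays. On the treated arrays it lay between 12.65 and 12.71. miR-185 was 5.34 ± 0.082 on the non-treated and 6.91 ± 0.16 on the treated arrays, a difference of 1.57 (SE 0.098, limma adjusted p = 2.23e-06). miR-22, which many tissues express, differed by 0.91 (SE 0.093, limma adjusted p = 3.84e-05).

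The falls in that list were led by miR-183, miR-182 and miR-96, which come from a single cluster also known in sensory organs and epithelia. miR-183 differed by -2.04 (SE 0.090, limma adjusted p = 4.13e-07) and miR-96 by -1.53 (SE 0.098, limma adjusted p = 2.46e-06). miR-182 was not detected on any treated array and was at least 1.97-fold higher on the non-treated arrays (limma adjusted p = 7.22e-05), a bound set by the lowest signal that each treated array still detected. miR-15b differed by -0.41 (SE 0.10, limma adjusted p = 0.00639). The 7 that did not pass lay between -0.28 and 0.12. miR-191 was not detected on any array, and miR-363 was on the arrays only as miR-363-3p, which was not tested. Most of these miRNAs are also expressed outside red cells.

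Markers of other cells moved with the labels in differing directions. Of the white blood cell list, 5 of 5 miRNAs were lower on the treated arrays (34.7% of all tested miRNAs were), with a median of -1.82. They were miR-142-3p, miR-142-5p, miR-150, miR-155 and miR-223, where both miR-142 names are strands of the same hairpin. The log2 of their summed signal lay between 10.12 and 10.51 on the non-treated and between 8.13 and 8.25 on the treated arrays. Of the kidney tubule list, 5 were on the arrays and 4 were tested, with a median of 2.04. Of those tested, 3 were higher (miR-192, miR-194 and miR-30a) and 1 was lower (miR-204). Among all tested miRNAs 25.8% were higher and 34.7% lower. The log2 of the summed signal of the tubule list lay between 10.66 and 10.94 on the non-treated and between 12.43 and 12.46 on the treated arrays. miR-215 was not detected on any array. The endothelial list held only miR-126-3p and miR-126-5p, which are strands of the same hairpin. Both missed the threshold, with a median of 0.037. The log2 of their summed signal lay between 10.79 and 10.93 on the non-treated and between 10.80 and 10.89 on the treated arrays.

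Striated muscle, the other tissue in which miR-486 is known, had 6 of its 7 listed miRNAs on the arrays under the listed name. Of these, 3 (miR-206, miR-208b and miR-499) were not detected on any array. miR-133a was detected on 3 non-treated and 0 treated arrays and was not tested. miR-208a was on the arrays as miR-208a-3p, which was not tested. Both that were tested missed the threshold, miR-1 with -0.72 (SE 0.27, limma adjusted p = 0.0427) and miR-133b with -0.92 (SE 0.44, limma adjusted p = 0.0934). The log2 of the summed signal lay between 4.24 and 5.80 on the non-treated and between 4.12 and 4.34 on the treated arrays. The part of any of these cells in the differences of miR-144, miR-451 and miR-3107 was not tested.

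**Figure D5:**
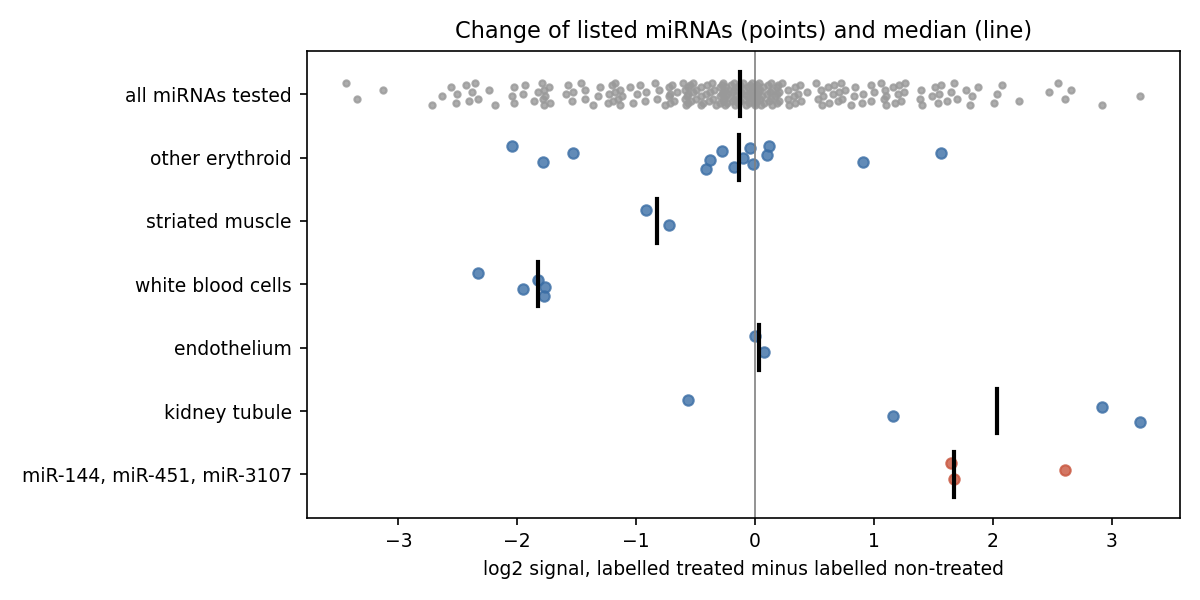
Log2 difference, treated minus non-treated label, for each tested miRNA (points) of the lists named at the left, with the median of each list (black line) and all 236 tested miRNAs in grey; miR-182, not detected on treated arrays, is drawn at its fitted value. The 3 red-cell members lie between 1.65 and 2.61, white blood cell miRNAs are all below 0, and the other erythroid miRNAs lie on both sides of it.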

How the data were processed

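Total RNA of mouse kidneys was hybridized to 1-colour Agilent mouse miRNA arrays, 7 in all. The authors deposited Agilent Feature Extraction 10.7.3.1 scanner output, with the processed intensity of each of 13920 spots for 1937 probes of 696 miRNAs, background-subtracted and not normalized between arrays. A value table that the authors deposited holds the processed intensity of the first spot of each probe on 6 arrays (relative tolerance 1e-05) and, for treated replicate 4, its error estimate. It was used as an alternative. Precision is limited by the number of arrays.

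Spots with an outlier flag were left out, the rest were averaged for each probe, and the probes of a miRNA were added up. Each array was scaled by its mean log2 signal over the 186 miRNAs that all arrays detected, floored at 2.08 and log2 transformed. The labels were compared with limma 3.58.1 (R 4.3.3) over 236 miRNAs, those that all arrays of 1 label or of both detected, at a Benjamini-Hochberg adjusted p of 0.01. Of these, 61 were higher and 82 lower. Exact permutation tests were 2-sided. The steps were tested on simulated data.

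The members and lists were chosen with earlier results of these data known. Named are the members, up to 6 listed erythroid miRNAs past the threshold by size, the 3 miRNAs most like miR-451, and those nearest in sequence. The lists are those of erythroid, white blood, muscle, endothelial and tubule miRNAs. The alternatives covered scaling, signal column, probes, filter, floor, test, replicate number and each array left out. A block for the slide row, a higher floor and, for ratios between members, quantile normalization and normexp without it were chosen after seeing the data. Arrays of a label differed at least 1.34 times as much as their spots allow and were taken as separate samples. No label names the animal behind an array, so p-values measure the spread between arrays, which may be technical. There was 1 slide and 1 scan.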

Additional observations from a re-analysis of the deposited data

Results flagged for a closer look

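The log2 ratio of miR-144 to miR-3107 on the arrays labelled non-treated held 1 array far from the others. Non-treated replicate 1 was at -0.60, while the other non-treated arrays lay between 0.0048 and 0.055, and its gap made up 0.923 of the group's whole range. The other 8 sets of 4 non-treated arrays examined in this way, which were the scaled and unscaled signals of each member and the other ratios, held no such array. Chance alone marks about 1 in 20 such sets.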

How the results depend on the processing

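The difference of miR-144 passed the threshold in all 25 alternatives, between 0.63 and 2.81. That of miR-451 passed in 23, all but no scaling (0.50) and spike-in scaling (0.70), and that of miR-3107 in 24, all but no scaling (0.52). normexp with quantile normalization gave 0.63, 2.07 and 0.36. Leaving out each array gave 2.45 to 2.80 for miR-144, 1.49 to 1.86 for miR-451 and 1.49 to 1.82 for miR-3107, with 126 to 163 miRNAs past the threshold against 143. The deposited table gave 61, and 94 with only its columns of signals. The split of higher against lower was 61 to 82, and became 37 to 121 with the mean of all miRNAs, 8 to 167 without scaling, 18 to 171 with spike-in scaling and 34 to 27 in the deposited table. The methods' t-test passed 139 without adjustment and 126 after Benjamini-Hochberg. The replicate number as a block gave 2.49, 1.49 and 1.49 and 127 miRNAs past the threshold, and a block for the slide row 2.54, 1.59 and 1.62. Deviations of arrays with the same number correlated at 0.080, -0.076 and 0.13, so the numbers were not taken to pair the arrays. Differences in change between members, in the order miR-144 over miR-451, miR-144 over miR-3107 and miR-451 over miR-3107, were -1.44, 0.27 and 1.71 with normexp and quantile normalization, -0.036, 0.31 and 0.35 with normexp without the quantile step, and 0.66, 1.04 and 0.38 with quantile normalization alone. That of miR-451 over miR-3107 was 0.20 in the deposited table with only columns of signals. The median of the erythroid list moved to -0.39 with the 75th percentile, -0.65 with the mean of all miRNAs, -1.30 without scaling and -1.09 with spike-in scaling, as did that of all tested miRNAs (-0.37, -0.63, -1.22 and -1.05). The cause of these shifts was not tested. The alternatives for miR-486 were not run, since it had no feature.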
